A study of Sus scrofa with 12 samples.

Results

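The 98 genes described here had a higher value in pig blood cells of the Salmonella group than in those of the control group. Their value was alike in the group given a miR-124 sponge with the bacterium. They were chosen from 7480 measured genes (1.31%) by the means of 4 libraries per group. A member had a Salmonella mean at least 1 log2 unit above the control mean, a Salmonella mean of at least 6, and a sponge plus Salmonella mean less than 0.4 from the Salmonella mean. In all, 533 genes met the first pair of conditions. Of these, 298 (55.9%) were lower with the sponge by 0.4 or more, 137 (25.7%) were higher by 0.4 or more, and the 98 members (18.4%) lay between. Because all 3 group means chose the members, their differences are given as a description. Calls are counted over the members only beside the share of all genes called, and nothing is read from them.

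The libraries came from peripheral blood mononuclear cells (PBMC) of Duroc x Landrace x Yorkshire crossbred piglets aged 4 weeks. The 3 groups of 4 libraries were non-treated controls, a group treated with Salmonella (Salmonella Typhi in the series text), and a group given the miR-124 sponge together with Salmonella. Cells were taken at 12 h after treatment, the series lists 20 piglets, 10 of each sex, and which animals gave which library is not stated. A sponge is a synthetic RNA or DNA that binds a microRNA and keeps it from its targets. The sources used here do not give the dose, the delivery of the sponge or whether animals or cultured cells were exposed, and no group analysed here had the sponge without bacteria. That the third group received a sponge comes from the sample descriptions, since its titles give only miR-124 and the bacterium. The libraries of a group may share animals, so SEs and p-values cover no more than the spread among libraries, which may be technical.

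Blood mononuclear cells sense Salmonella through lipopolysaccharide and other bacterial molecules, and monocytes answer with cytokines, lipid mediators and changes in membrane traffic that serve uptake and killing. Mitogen-activated protein kinase cascades carry part of that signal and are turned off again by dual specificity phosphatases, whose own genes are induced by the cascade. miR-124 is best known from neurons and is also described as a brake on inflammatory activation of monocytes and macrophages.

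Values are log2 units as deposited, and 4 values in a row are always those of replicates 1 to 4. The word rise stands for the Salmonella mean minus the control mean, and sponge difference for the sponge plus Salmonella mean minus the Salmonella mean. Each is given with its SE from limma over all 12 libraries (n = 4 per group), and the rise without control replicate 1 follows in parentheses. The depth of the libraries is unknown, values ran from 2.13 to 15.01, and 0 were at 0. It is not stated whether values are per gene length, so levels are not ranked between genes. A set of 163 genes taken as silent in blood (olfactory receptors and keratin-associated proteins) averaged 4.62, with a 95th percentile of 5.24. For 17 members the control mean lay at or below that percentile, so the size of their rise is uncertain. That floor is itself uncertain, because only 37 of the 163 symbols appear in the pig gene tables, while 403 of the 7480 measured genes (5.39%) are missing from them.

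Control replicates 1 and 3 stood apart in these genes, in opposite directions. Replicate 1 was the lowest of the 4 control libraries in 81 of the 98 members (82.7%), against 23.9% of all 7480 genes. Its median distance from the mean of the other 3 controls was -0.74 over the members and 0.02 over all genes. It was also the lowest control in 34.2% of the 298 genes that were lower with the sponge and in 87.6% of the 137 that were higher. Replicate 3 was the highest control in 55 members (56.1%), against 25.5% of all genes. Its median distance from the other 3 was 0.53 over the members and -0.04 over all genes. It was highest in 16.4% of the genes lower with the sponge and in 90.5% of those higher. In 50 members replicate 1 was lowest and replicate 3 highest. The rule used the control mean, and the part of that choice in these counts was not tested. Within the control group the median SD over the members was 0.53, or 0.36 without replicate 1, against 0.19 over all genes. Exact ties between genes were common in the 4 sponge plus Salmonella libraries, where 65.1% to 71.4% of all values and 23.5% to 36.7% of the members' values had one, against at most 0.0802% in the other 8 libraries. It is not stated whether these 4 columns were processed in another way. In every sponge difference given here, a difference in processing and the sponge cannot be told apart.

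Blood cell markers moved between the same groups. Of 17 measured monocyte and macrophage markers, 14 were called higher with Salmonella by limma, and 12 were called lower with the sponge than with Salmonella alone. The Salmonella comparison called 15.7% of all genes higher and 17.9% lower, and the sponge comparison called 11.9% higher and 13.2% lower. Their summed level ran from 14.93 to 15.33 in controls, 16.12 to 16.29 with Salmonella and 14.97 to 15.67 with the sponge. Of 14 T cell markers, 13 were called lower with Salmonella and 11 higher with the sponge, with sums of 13.95 to 14.42, 12.33 to 12.89 and 13.11 to 13.80. B cell sums ran from 12.09 to 12.93, 9.85 to 10.23 and 11.44 to 11.8, and in control replicate 1 the B cell sum was 12.93 against 12.09 to 12.21 in the other controls. Natural killer cell sums ran from 14.13 to 14.87, 12.31 to 13.50 and 12.64 to 13.30, and platelet sums from 12.07 to 12.40, 12.67 to 13.81 and 12.83 to 13.36. Neutrophil and granule sums ran from 13.88 to 14.06, 13.92 to 14.13 and 13.75 to 14.03, but nearly all of that sum is S100A9, which monocytes also make and which read between 13.56 and 13.83 in all libraries. Of the 12 measured genes of that list, 2 were called higher and 3 lower with Salmonella, and 0 higher and 1 lower with the sponge than with Salmonella alone. RETN and CEBPE, named after their values were seen, were among the 3. RETN, which encodes resistin, averaged 7.97 in controls, 6.43 with Salmonella and 5.82 with the sponge (Salmonella minus control -1.54 ± 0.40, adjusted p = 0.0079 by limma). CEBPE, a transcription factor of granulocyte maturation, averaged 7.25, 5.69 and 4.93 (-1.56 ± 0.35, adjusted p = 0.003 by limma). The T cell receptor chain gene CD3E averaged 7.79 in controls, while CD3D at 4.29 read like a silent gene. No marker was at 0. The part of these shifts in the members' values was not tested, and in bulk RNA fewer cells of a type and less RNA per cell cannot be told apart.

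The median rise of the members was 1.49 log2 units, with a range of 1.01 to 3.37, while the median difference over all 7480 genes was -0.02. A rise of at least 2 was found in 17 members, a rise of 1.5 to 2 in 31, and a smaller one in 50. limma called 98 of the 98 higher with Salmonella than in controls at an adjusted p below 0.05 (15.7% of all genes), and in 87 the 4 Salmonella values lay above the 4 control values (15.7% of all genes). Between sponge plus Salmonella and Salmonella, limma called 0 of 98 members, with 0 at an unadjusted p below 0.05 (25% of all genes were called in either direction), and the 4 and 4 values overlapped in 97. Against controls the sponge plus Salmonella libraries were called higher in 97 members (17.9% of all genes), and 92 showed no overlap (17.3% of all genes). These comparisons share libraries, so they are set side by side and not counted as repeats of each other. In 82 members all 8 values of the exposed libraries lay above all 4 control values (7.41% of all genes). Each count in this paragraph follows from the choice of members by the same 3 means, the 0 and the 97 included.

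**Figure D1:**
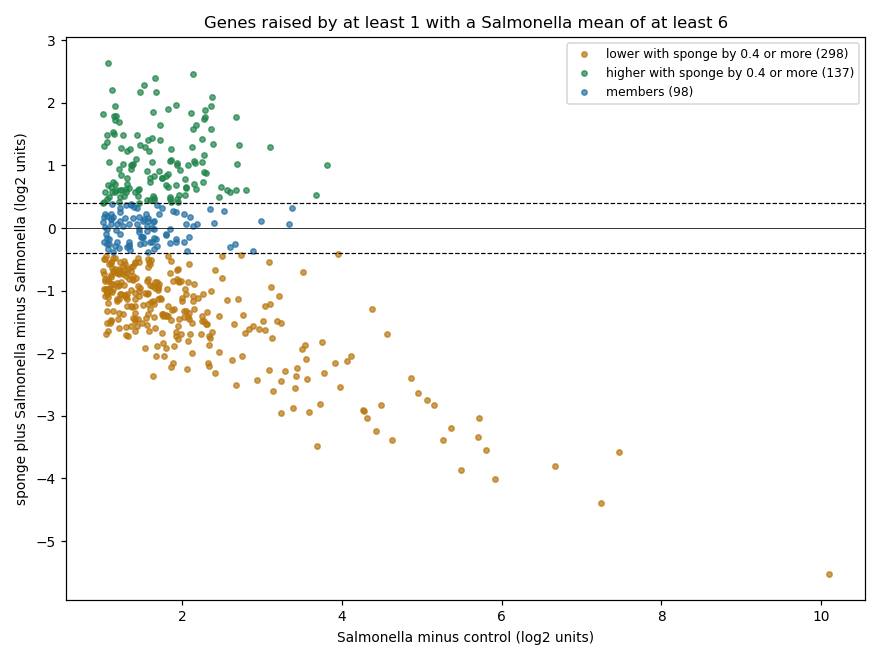
Each point is 1 of the 533 genes raised by at least 1 log2 unit with a Salmonella mean of at least 6, plotted by its Salmonella minus control difference (horizontal axis, log2 units) and its sponge plus Salmonella minus Salmonella difference (vertical axis, log2 units). Dashed lines mark 0.4 and -0.4; the 98 members lie between them with rises of 1.01 to 3.37, and both axes use the same Salmonella libraries.

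**Figure D2:**
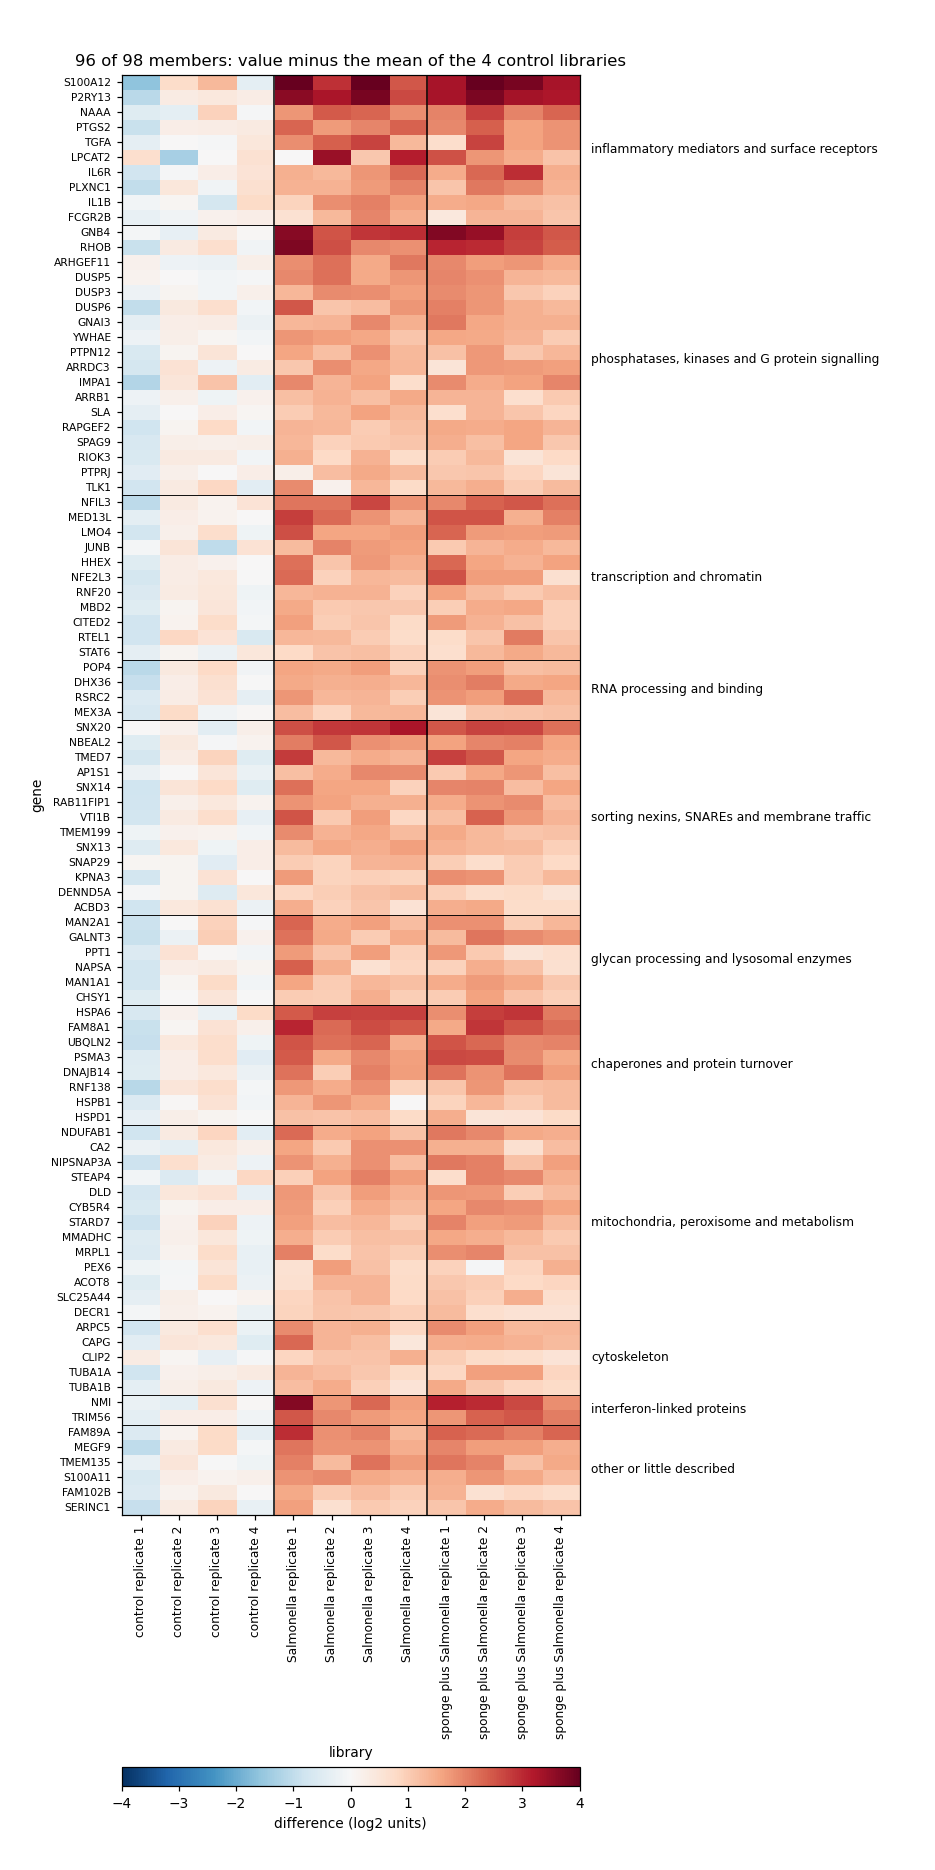
Heat map of 96 of the 98 members (1 gene per line, grouped by role) in the 12 libraries, with colour for the value minus the mean of the 4 controls in log2 units (scale -4 to 4). Control replicate 1 is blue in most genes and was the lowest control in 81, while the 8 exposed libraries are red to a like degree.

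Among genes of inflammatory mediators and surface receptors, 10 were members, with rises of 1.33 to 3.37 and a median of 1.99. The largest rise of all members was that of S100A12 (chromosome 4, 96225691 to 96227030 of Sscrofa11.1), a calcium-binding alarmin of myeloid cells that signals through the receptor RAGE. Control values of S100A12 were 4.91, 7.25, 7.83 and 6.13, the Salmonella values 10.59, 9.45, 10.55 and 9.03 and the sponge plus Salmonella values 9.83, 10.90, 10.34 and 9.84. Its rise was 3.37 ± 0.52 (2.83) and its sponge difference 0.32 ± 0.52. All 8 exposed values lay above the controls, which themselves ran from 4.91 in replicate 1 to 7.83 in replicate 3. P2RY13 (chromosome 13, 91509441 to 91513687), a G protein-coupled receptor for ADP, showed a rise of nearly the same size. P2RY13 read 4.46, 5.89, 5.97 and 5.86 in controls, 9.17, 8.81, 9.36 and 8.20 in Salmonella libraries and 8.84, 9.33, 8.88 and 8.77 in sponge plus Salmonella libraries. The rise was 3.34 ± 0.32 (2.98) and the sponge difference 0.07 ± 0.32. Control replicates 2 to 4 were nearly equal, replicate 1 was lower, and the exposed groups overlapped each other widely.

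PTGS2 (chromosome 9, 127850164 to 127858866) encodes cyclooxygenase 2, the inducible enzyme of prostaglandin synthesis. PTGS2 stood at 4.38, 5.53, 5.57 and 5.64 in the control libraries, at 7.60, 6.99, 7.22 and 7.65 with Salmonella and at 7.20, 7.67, 6.89 and 7.08 with the sponge. It rose by 2.08 ± 0.29 (1.78), with a sponge difference of -0.15 ± 0.29, and no exposed library came near a control. NAAA, a lysosomal amidase that degrades the lipid mediator palmitoylethanolamide, rose by 2.09 ± 0.30 (1.93), with a sponge difference of 0.17 ± 0.30. TGFA, a ligand of the epidermal growth factor receptor, rose by 2.06 ± 0.39 (1.93) from a control mean at the silent level, and its sponge difference was -0.36 ± 0.39. In TGFA the sponge library replicate 1 (5.20) lay far below replicate 2 (7.19), though still above the highest control (4.94).

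The cytokine gene IL1B (chromosome 3, 43670126 to 43677125) was the only one of 5 raised cytokine and chemokine genes among the members, the other 4 being lower with the sponge. Control values of IL1B were 7.87, 8.07, 7.28 and 8.74, the Salmonella values 8.89, 9.86, 10 and 9.63 and the sponge plus Salmonella values 9.48, 9.53, 9.27 and 9.16. Its rise was 1.60 ± 0.28 (1.56) and its sponge difference -0.23 ± 0.28. Control replicate 3, not replicate 1, was lowest, and Salmonella replicate 1 was the lowest of its group, just above the highest control. Without Salmonella replicate 1 the sponge difference of IL1B passed the lower limit of the rule, and IL1B was no longer a member. IL6R, the interleukin 6 receptor, rose by 1.68 ± 0.36 (1.43), with a sponge difference of 0.37 ± 0.36 that came mostly from replicates 2 and 3 (7.75 and 8.38). PLXNC1, a plexin that binds semaphorin 7A, rose by 1.62 ± 0.33 (1.29), and its sponge difference of 0.00 ± 0.33 was the nearest to 0 of all members. FCGR2B, the inhibitory receptor for IgG, rose by 1.33 ± 0.27 (1.23), with a sponge difference of -0.27 ± 0.27. Its near relatives in the Fc receptor family share sequence, so 50-base single reads may have been divided between them.

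LPCAT2, an acyltransferase that makes platelet-activating factor, was the least even member. LPCAT2 read 6.51, 4.51, 5.85 and 6.44 in controls, 5.84, 9.29, 6.91 and 8.96 in Salmonella libraries and 8.39, 7.58, 7.32 and 6.98 in sponge plus Salmonella libraries. The rise was 1.92 ± 0.65 (2.15) and the sponge difference -0.18 ± 0.65, with a 95% interval of -1.56 to 1.20. Salmonella replicates 2 and 4 were high, replicate 1 lay below 3 of the controls, and control replicate 2 was lowest.

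**Figure D3:**
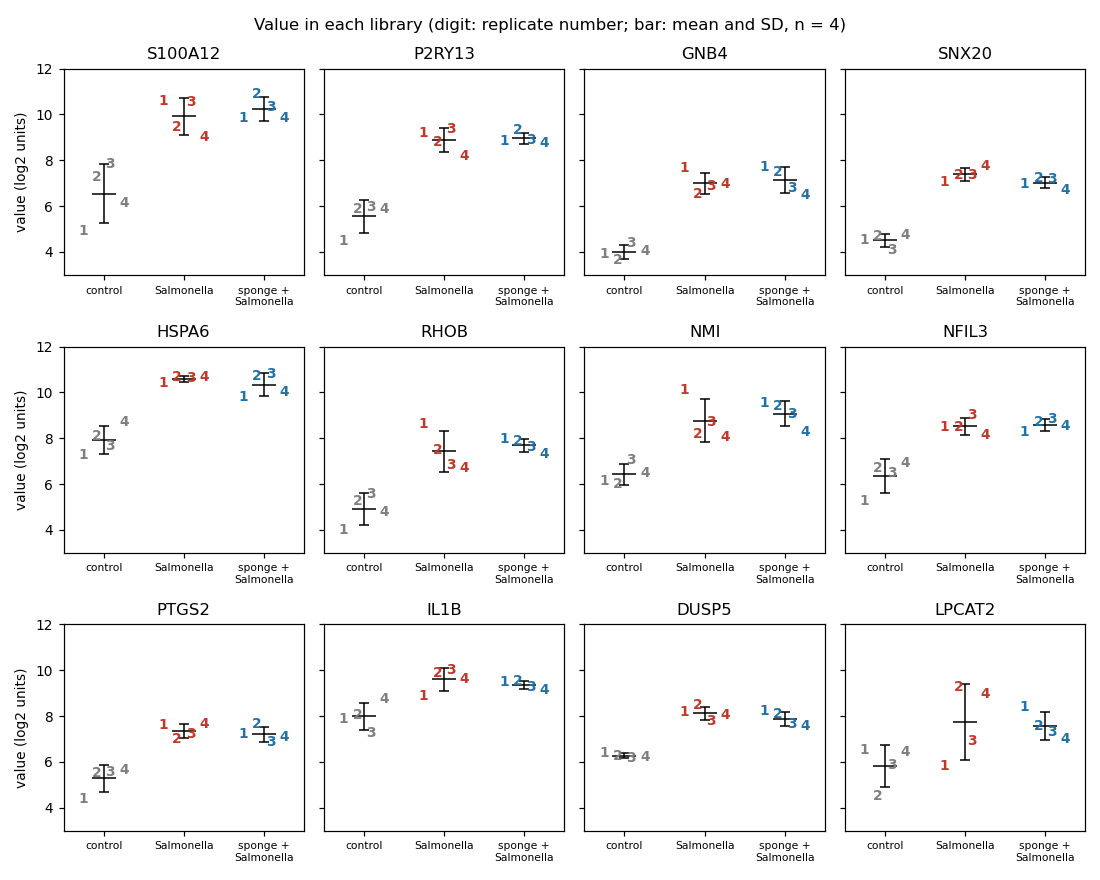
Value of 12 members in each library (vertical axis, log2 units; the digit is the replicate number, the bar the mean and SD of 4 libraries) for control, Salmonella and sponge plus Salmonella. The Salmonella and sponge values overlap in each panel, S100A12 spreads from 4.91 to 7.83 among controls, DUSP5 only from 6.16 to 6.41, and LPCAT2 overlaps between groups.

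Phosphatases, kinases, adaptors and G protein signalling genes made up 18 members, with rises of 1.03 to 2.99. GNB4 (chromosome 13, 117442594 to 117513387), a G protein beta subunit, had the largest. GNB4 stood at 3.91, 3.66, 4.37 and 4.05 in the control libraries, at 7.64, 6.51, 6.87 and 6.95 with Salmonella and at 7.70, 7.49, 6.78 and 6.49 with the sponge. It rose by 2.99 ± 0.31 (2.97), and the sponge difference was 0.12 ± 0.31. Control replicate 1 was not lowest in this gene and leaving it out hardly moved the rise, but the controls lay below the mean of silent genes, so the size is uncertain. RHOB (chromosome 3, 117773400 to 117777569), a small GTPase of endosomes, also rose from near that level. Control values of RHOB were 4.0, 5.26, 5.57 and 4.76, the Salmonella values 8.64, 7.48, 6.83 and 6.72 and the sponge plus Salmonella values 7.96, 7.87, 7.61 and 7.32. Its rise was 2.52 ± 0.40 (2.22), its sponge difference 0.27 ± 0.40, and Salmonella replicate 1 was the highest library. ARHGEF11, a guanine nucleotide exchange factor, rose by 1.92 ± 0.22 (1.98), with a sponge difference of -0.22 ± 0.22, from controls at the silent level (4.01 to 4.49).

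The group held 3 dual specificity phosphatases. DUSP5 (chromosome 14, 120906340 to 120919398) is a nuclear phosphatase of the kinase ERK, and DUSP6 (chromosome 5, 93303058 to 93307510) its cytoplasmic counterpart. DUSP5 read 6.41, 6.27, 6.16 and 6.23 in controls, 8.19, 8.48, 7.78 and 8.03 in Salmonella libraries and 8.22, 8.09, 7.64 and 7.57 in sponge plus Salmonella libraries. DUSP5 rose by 1.85 ± 0.20 (1.90), with a sponge difference of -0.24 ± 0.20. Its controls spanned only 6.16 to 6.41, and the closest exposed library was more than 1 log2 unit above them. DUSP6 stood at 7.92, 9.30, 9.58 and 8.78 in the control libraries, at 11.38, 10.01, 10.12 and 10.66 with Salmonella and at 10.90, 10.68, 10.33 and 10.20 with the sponge. DUSP6 rose by 1.65 ± 0.34 (1.32), with a sponge difference of -0.02 ± 0.34, and here control replicate 1 was the lowest by almost 1 log2 unit. DUSP3, which acts on ERK and JNK, rose by 1.68 ± 0.22 (1.62), with a sponge difference of -0.28 ± 0.22. In DUSP3 sponge replicates 1 and 2 (10.59 and 10.45) read like the Salmonella libraries, while replicates 3 and 4 (9.78 and 9.62) were lower.

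Other genes of this role had smaller rises. GNAI3, an inhibitory G protein alpha subunit, rose by 1.51 ± 0.22 (1.39) with a sponge difference of 0.12 ± 0.22, and YWHAE, the epsilon 14-3-3 adaptor, by 1.51 ± 0.20 (1.44) with -0.15 ± 0.20. PTPN12, a tyrosine phosphatase of cell adhesion on the list of reported miR-124 targets, rose by 1.48 ± 0.24 (1.27). Control values of PTPN12 were 6.75, 7.47, 7.88 and 7.39, the Salmonella values 8.95, 8.57, 9.21 and 8.67 and the sponge plus Salmonella values 8.54, 9.12, 8.46 and 8.69. Its sponge difference was -0.15 ± 0.24, and each group's values overlapped those of the other exposed group. SLA, an adaptor that dampens antigen receptor signalling, stood at 10.63 to 11.20 with Salmonella and 10.28 to 10.97 with the sponge, against 9.25 to 9.86 in controls. RAPGEF2, an exchange factor for Rap GTPases, was the 1 member whose sponge values (7.98 to 8.22) did not overlap the Salmonella values (7.65 to 7.98), a separation seen in that direction in 10.6% of all genes. Its sponge difference was 0.26 ± 0.26; the closest values of the groups are equal when rounded.

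Among transcription and chromatin genes, 11 were members, and 9 of their sponge differences lay above 0. NFIL3 (chromosome 14, 2588887 to 2603774), a leucine zipper factor of immune cells, led the group. NFIL3 read 5.28, 6.70, 6.48 and 6.90 in controls, 8.49, 8.47, 9.0 and 8.13 in Salmonella libraries and 8.26, 8.69, 8.83 and 8.53 in sponge plus Salmonella libraries. It rose by 2.18 ± 0.30 (1.83), with a sponge difference of 0.06 ± 0.30, and all exposed values were at least 1 log2 unit above the highest control. LMO4 encodes a LIM-only cofactor of transcription. LMO4 stood at 6.86, 7.79, 8.29 and 7.42 in the control libraries, at 10.16, 9.16, 9.18 and 9.25 with Salmonella and at 9.91, 9.28, 9.27 and 9.28 with the sponge. Its rise was 1.85 ± 0.29 (1.61), its sponge difference -0.01 ± 0.29, and replicate 1 was the high library in both exposed groups and the low one among controls. MED13L, of the Mediator kinase module, rose by 2.05 ± 0.32 (1.91) from the silent level, with a sponge difference of 0.07 ± 0.32.

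JUNB (chromosome 2, 66214086 to 66219435), a subunit of the AP-1 factor, rose by 1.65 ± 0.31 (1.62). Control values of JUNB were 5.46, 6.05, 4.50 and 6.10, the Salmonella values 6.81, 7.5, 7.23 and 7.15 and the sponge plus Salmonella values 6.59, 6.89, 7.02 and 6.82. Its sponge difference was -0.34 ± 0.31, the most negative of the role group, and control replicate 3 was the low library, not replicate 1. HHEX, a homeobox repressor of blood cell development, rose by 1.63 ± 0.26 (1.46), with a sponge difference of 0.09 ± 0.26. STAT6, the factor of interleukin 4 signalling, rose by 1.02 ± 0.21 (0.90) and so stood just inside the threshold and below it without control replicate 1. Of 8 raised genes of interferon signalling and interferon regulatory factors it was the only member, and the other 7 were lower with the sponge. NFE2L3, RNF20, MBD2, CITED2 and RTEL1 completed the group with rises of 1.10 to 1.45.

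Both interferon-linked members had a sponge difference above 0. NMI (chromosome 15, 941379 to 966519) binds STAT and MYC proteins and is induced by interferons. NMI read 6.14, 6.02, 7.05 and 6.46 in controls, 10.10, 8.19, 8.72 and 8.05 in Salmonella libraries and 9.53, 9.41, 9.07 and 8.29 in sponge plus Salmonella libraries. It rose by 2.35 ± 0.40 (2.26), with a sponge difference of 0.31 ± 0.40, and Salmonella replicate 1 was the highest of all 12 libraries. TRIM56 (chromosome 3, 8834260 to 8842524), a ubiquitin ligase of antiviral sensing, rose by 1.92 ± 0.24 (1.79) with a sponge difference of 0.25 ± 0.24. TRIM56 stood at 5.32, 5.96, 5.97 and 5.57 in the control libraries, at 8.17, 7.62, 7.41 and 7.28 with Salmonella and at 7.48, 8.07, 8.17 and 7.76 with the sponge. The exposed groups overlapped, and the lowest exposed value exceeded the highest control by more than 1 log2 unit. Of 26 measured interferon-stimulated genes 25 were raised with Salmonella. Of these, 24 were lower with the sponge by 0.4 or more, NMI being the other. The rule no longer chose NMI without Salmonella replicate 1 or without sponge plus Salmonella replicate 4. By limma, 22 of the 26 were called lower with the sponge than with Salmonella alone (13.2% of all genes), with a list median of -1.75 (all genes -0.04).

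Membrane traffic genes made up 13 members, with rises of 1.01 to 2.88. SNX20 (chromosome 6, 34176753 to 34188233) encodes a sorting nexin that binds the selectin ligand PSGL-1 of leukocytes. Control values of SNX20 were 4.50, 4.68, 4.09 and 4.74, the Salmonella values 7.07, 7.34, 7.36 and 7.76 and the sponge plus Salmonella values 6.98, 7.21, 7.17 and 6.71. Its rise was 2.88 ± 0.23 (2.88), unmoved by control replicate 1, and its sponge difference -0.37 ± 0.23 was near the lower limit of the rule. The controls lay around the silent mean, so the size of this rise is uncertain. NBEAL2, needed for granules of platelets and neutrophils, rose by 2.02 ± 0.22 (1.86), with a sponge difference of -0.22 ± 0.22. TMED7, a cargo receptor of the early secretory path, rose by 1.74 ± 0.41 (1.51) with a sponge difference of 0.32 ± 0.41, and its replicate 1 was the high library in both exposed groups (8.86 and 8.78).

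AP1S1, a subunit of the clathrin adaptor AP-1, rose by 1.62 ± 0.26 (1.55), with a sponge difference of -0.23 ± 0.26. SNX14, a sorting nexin of late endosomes and lipid droplets, rose by 1.57 ± 0.35 (1.30), with a sponge difference of 0.12 ± 0.35. SNAP29, a SNARE for fusion of autophagosomes and endosomes, rose by 1.16 ± 0.20 (1.19) and was the only member among 10 raised genes of the endosome, SNARE and Rab list. SNAP29 read 6.88, 6.90, 6.34 and 7.05 in controls, 7.81, 7.67, 8.15 and 8.17 in Salmonella libraries and 7.77, 7.49, 7.79 and 7.58 in sponge plus Salmonella libraries. Its sponge difference was -0.29 ± 0.20, and every exposed value was above every control. Of the other 9 raised genes in that list, 8 were lower and 1 higher with the sponge. RAB11FIP1, VTI1B, TMEM199, SNX13, KPNA3, DENND5A and ACBD3 were the remaining traffic members.

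Chaperone and protein turnover genes numbered 8. HSPA6 (chromosome 4, 88970592 to 88973109) encodes a strictly inducible Hsp70 chaperone and has close copies among the other Hsp70 genes, so reads may have been shared. HSPA6 stood at 7.28, 8.10, 7.65 and 8.69 in the control libraries, at 10.39, 10.66, 10.64 and 10.67 with Salmonella and at 9.79, 10.70, 10.80 and 10.02 with the sponge. Its rise was 2.66 ± 0.28 (2.44), and its sponge difference was -0.26 ± 0.28. The Salmonella libraries lay close together, while sponge replicates 1 and 4 lay below them and replicates 2 and 3 above. FAM8A1, a partner of the HRD1 ligase complex that clears misfolded proteins of the endoplasmic reticulum, rose by 2.59 ± 0.32 (2.30), with a sponge difference of -0.31 ± 0.32. UBQLN2, a shuttle between ubiquitin and the proteasome, rose by 2.13 ± 0.31 (1.82) with 0.04 ± 0.31, and PSMA3, a core subunit of the proteasome, by 1.88 ± 0.32 (1.70) with 0.28 ± 0.32. DNAJB14, a co-chaperone of the endoplasmic reticulum, rose by 1.71 ± 0.29 (1.55) with a sponge difference of 0.23 ± 0.29. HSPD1, the mitochondrial chaperonin, rose by 1.08 ± 0.20 (0.97) with -0.25 ± 0.20, and was the only member among 6 raised genes of the heat shock list, 3 others being higher and 2 lower with the sponge. HSPA6, HSPB1 and DNAJB14 were not on that list.

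Genes of mitochondria, peroxisomes and metabolism numbered 14, all with rises of 1.02 to 1.64. NDUFAB1 (chromosome 3, 22619458 to 22631575) is the acyl carrier protein of mitochondria and a subunit of complex I. Control values of NDUFAB1 were 7.45, 8.61, 9.12 and 7.84, the Salmonella values 10.53, 9.73, 9.87 and 9.44 and the sponge plus Salmonella values 10.36, 10.19, 9.77 and 9.72. It rose by 1.64 ± 0.32 (1.37), with a sponge difference of 0.12 ± 0.32, and the low and high controls (replicates 1 and 3) differed by more than the rise without replicate 1. Of 4 raised genes of the respiratory chain list, it was the member and the other 3 were higher with the sponge. DLD, the dihydrolipoamide dehydrogenase of several mitochondrial complexes, rose by 1.46 ± 0.28 (1.23) with a sponge difference of -0.02 ± 0.28. CA2, a carbonic anhydrase, rose by 1.57 ± 0.24 (1.5), and its sponge difference of -0.39 ± 0.24 lay just inside the rule. STEAP4, a metalloreductase, rose by 1.56 ± 0.34 (1.51) with -0.05 ± 0.34, and its sponge replicate 1 (5.98) fell below control replicate 4 (6.09).

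DECR1 is an enzyme of unsaturated fatty acid oxidation. DECR1 read 10.28, 10.55, 10.50 and 10.10 in controls, 11.26, 11.48, 11.45 and 11.30 in Salmonella libraries and 11.62, 11.03, 10.95 and 10.95 in sponge plus Salmonella libraries. Its rise was 1.02 ± 0.17 (0.99) and its sponge difference -0.23 ± 0.17, with sponge replicate 1 above the other 3. SLC25A44, a mitochondrial carrier of branched-chain amino acids, rose by 1.03 ± 0.20 (0.91) with a sponge difference of 0.02 ± 0.20. PEX6, an ATPase of peroxisomal import, was the 1 member not called between sponge plus Salmonella and control. PEX6 stood at 5.44, 5.54, 6.14 and 5.32 in the control libraries, at 6.23, 7.28, 6.78 and 6.34 with Salmonella and at 6.53, 5.56, 6.47 and 7.04 with the sponge. Its rise was 1.05 ± 0.32 (0.99) and its sponge minus control difference 0.79 ± 0.32, and sponge replicate 2 read like a control. NIPSNAP3A rose by 1.57 ± 0.32 (1.30), with a sponge difference of 0.16 ± 0.32 and a control mean at the silent level.

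The 6 enzymes of glycan processing and lysosomes included 2 mannosidases of the Golgi. MAN2A1 rose by 1.67 ± 0.34 (1.38), with a sponge difference of -0.18 ± 0.34, and MAN1A1 by 1.28 ± 0.29 (1.03), with 0.16 ± 0.29. GALNT3, which starts mucin-type O-glycans, rose by 1.54 ± 0.36 (1.24) from near the silent level, with a sponge difference of 0.22 ± 0.36. PPT1 (chromosome 6, 95840906 to 95860858), is a lysosomal thioesterase that removes palmitate from proteins. Control values of PPT1 were 10.34, 11.47, 10.94 and 10.78, the Salmonella values 12.57, 11.99, 12.54 and 11.80 and the sponge plus Salmonella values 12.61, 11.93, 11.41 and 11.56. It rose by 1.34 ± 0.28 (1.16), with a sponge difference of -0.35 ± 0.28, and sponge replicate 3 (11.41) fell just under control replicate 2 (11.47). NAPSA, an aspartic protease, rose by 1.33 ± 0.35 (1.09), with a sponge difference of -0.29 ± 0.35.

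RNA processing and binding genes numbered 5. POP4, a subunit of RNase P, rose by 1.43 ± 0.34 (1.08) with a sponge difference of 0.06 ± 0.34. DHX36 (chromosome 13, 94298790 to 94350333) is a helicase of G-quadruplexes. DHX36 read 4.55, 5.73, 6.11 and 5.44 in controls, 6.99, 6.87, 6.92 and 6.78 in Salmonella libraries and 7.33, 7.5, 6.98 and 7.04 in sponge plus Salmonella libraries. It rose by 1.43 ± 0.28 (1.13), with a sponge difference of 0.32 ± 0.28, and every exposed value lay above every control. RSRC2 rose by 1.36 ± 0.29 (1.18), and its sponge difference of 0.39 ± 0.29 was the largest of all members, just inside the limit of 0.4. MEX3A, an RNA-binding protein, rose by 1.18 ± 0.27 (0.96), and its sponge replicate 1 (6.30) lay below control replicate 2 (6.55).

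Cytoskeleton genes numbered 5 and had the smallest median rise of any role, 1.13. ARPC5 (chromosome 9, 124839062 to 124847906) is a subunit of the Arp2/3 complex that branches actin filaments. ARPC5 stood at 9.91, 11.07, 11.36 and 10.42 in the control libraries, at 12.59, 12.05, 12.12 and 11.53 with Salmonella and at 12.59, 12.33, 11.98 and 12.02 with the sponge. Its rise was 1.38 ± 0.29 (1.12) and its sponge difference 0.16 ± 0.29, and Salmonella replicate 4 exceeded the highest control only slightly. CAPG, which caps actin filaments, rose by 1.33 ± 0.33 (1.20), with a sponge difference of 0.07 ± 0.33. With RHOB they were the 3 members among 7 raised genes of the actin list, and the other 4 were higher with the sponge. CLIP2, a microtubule linker, kept the smallest share of its rise, 65.5%, with a rise of 1.13 ± 0.22 (1.24) and a sponge difference of -0.39 ± 0.22.

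The alpha tubulin genes TUBA1B (chromosome 5, 15150229 to 15153620) and TUBA1A (chromosome 5, 15186059 to 15190211) lie 32.4 kb apart. They are near-identical copies, and 50-base single reads may not tell them apart. Control values of TUBA1B were 10.79, 11.40, 11.56 and 10.98, the Salmonella values 12.40, 12.67, 12.14 and 11.74 and the sponge plus Salmonella values 12.70, 12.25, 12.05 and 11.93. TUBA1B rose by 1.06 ± 0.23 (0.93), with a sponge difference of -0.01 ± 0.23, and TUBA1A by 1.11 ± 0.26 (0.85), with 0.14 ± 0.26. Both fell below the threshold of 1 when control replicate 1 was left out.

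The 6 members of other or little described role included S100A11 (chromosome 4, 97233833 to 97239081), a calcium-binding protein of the S100 family. S100A11 read 9.06, 9.94, 9.80 and 9.88 in controls, 11.48, 11.57, 11.17 and 11.05 in Salmonella libraries and 11.11, 11.42, 11.20 and 10.90 in sponge plus Salmonella libraries. It rose by 1.65 ± 0.20 (1.44), with a sponge difference of -0.16 ± 0.20, and all 8 exposed values were about 1 log2 unit or more above the highest control. FAM89A rose by 2.02 ± 0.34 (1.84) from the silent level, with a sponge difference of 0.22 ± 0.34, and MEGF9, a membrane protein with EGF-like repeats, by 1.79 ± 0.30 (1.45), with -0.11 ± 0.30. TMEM135, a membrane protein linked to mitochondria and peroxisomes, rose by 1.79 ± 0.28 (1.69) with -0.10 ± 0.28, also from the silent level.

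The sponge differences were small in the mean but not tightly bounded. They ran from -0.39 to 0.39 by the rule, with 51 above 0 and 47 below and a median of 0.03 (all genes -0.04). The 95% interval of a member reached a median of 0.61 to either side, from 0.36 to 1.38. It stayed within 1 log2 unit of 0 in 83 members, reached 1 or -1 in the other 15, and stayed within 0.4 of 0 in 0 of 98. The members are thus genes with like group means, and each interval reaches past 0.4 on at least 1 side. Set against the control mean, the sponge plus Salmonella libraries kept a median of 102% of the rise. This share ran from 65.5% in CLIP2 to 134% in KPNA3, an importin. The rule's limits on the rise and the sponge difference bound the share in advance, so nothing is read from it.

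**Figure D4:**
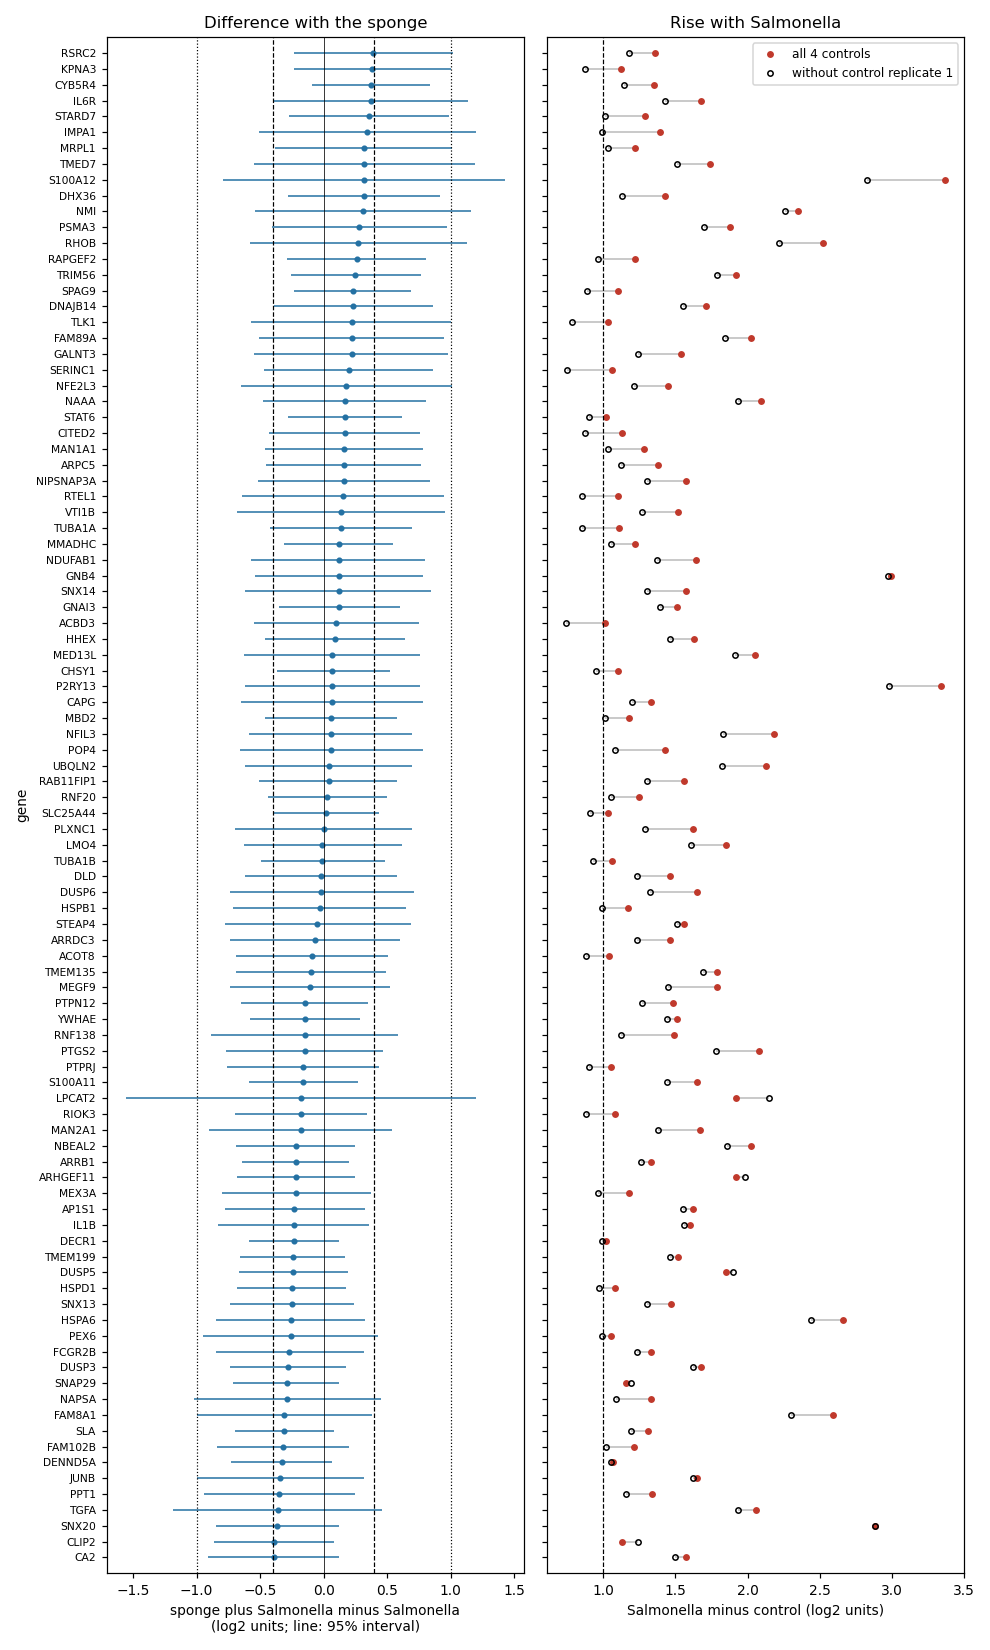
Left, sponge plus Salmonella minus Salmonella difference (log2 units) of 96 of the 98 members with its 95% interval, with dashed lines at 0.4 and -0.4 and dotted lines at 1 and -1. Right, Salmonella minus control difference (log2 units) with all 4 controls (filled) and without control replicate 1 (open), where 22 members fall below the dashed line at 1.

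Without control replicate 1 the rise was smaller in 93 of the 98 members, with a median of 1.27. It stayed at 1 or more in 76 and fell below 1 in 22, down to 0.74 in ACBD3. limma called 93 members higher (12.3% of all genes), the exceptions being ACBD3, PEX6, RTEL1, SERINC1 and TLK1, and 87 showed no overlap (17.3% of all genes). The rule applied to the 11 other libraries chose 77 genes, 76 of them members, and the raised genes were then 472, of which 290 were lower and 105 higher with the sponge. In 17 members control replicate 1 was not the lowest control, among them IL1B, DUSP5, JUNB, NMI, GNB4, SNX20, CAPG and SNAP29. These had a median rise of 1.60, or 1.55 without that library, and 14 of their 17 sponge differences lay below 0 (median -0.23). The other 81 had a median rise of 1.46, or 1.23 without it, with 48 sponge differences above 0 and 33 below (median 0.06). The libraries also differed within the exposed groups, and more members hung on Salmonella replicate 1 than on control replicate 1. Without Salmonella replicate 1 the rule kept 66 of the 98 members, the fewest of any single library left out. Those it no longer chose included S100A12, SNX20, RHOB, NMI, TGFA, TRIM56, JUNB, IL1B and FCGR2B. Salmonella replicate 1 was the highest of its group in 51 members (52%), against 24.7% of all genes. The share was 9.73% in raised genes lower with the sponge and 94.2% in those higher. Salmonella replicate 4 was the lowest in 42 members (42.9%), against 26.5% of all genes, 12.1% of those lower and 81% of those higher. Sponge replicate 4 was the lowest of its group in 43 (43.9%), against 21.1%, 41.9% and 51.8%. The part of the rule's choice in these counts was not tested.

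The other genes of the pathways took different sides of the rule. Of 28 measured genes of the MAP kinase and dual specificity phosphatase list, 4 were raised by the rule, and DUSP3, DUSP5, DUSP6 and JUNB were all members. Without control replicate 1, 5 were raised and all had a like sponge mean, but a control library has no part in the sponge difference. JUNB was no longer a member without Salmonella replicate 1 or sponge plus Salmonella replicate 3, and DUSP3 without sponge plus Salmonella replicate 1. DUSP5 and DUSP6 stayed members whichever library was left out. By limma 9 of the 28 were called higher with Salmonella and 3 lower, against 15.7% and 17.9% of all genes. With the sponge 4 were called higher than with Salmonella alone and 0 lower, against 11.9% and 13.2% of all genes, with a list median of -0.05. FOS, the partner of JUN proteins in AP-1, rose by 0.99 ± 0.32 (adjusted p = 0.028) and missed the threshold narrowly, with a sponge difference of -0.17 ± 0.32 (adjusted p = 0.71). MAPK14, the p38 alpha kinase, rose by 1.5 ± 0.31 (adjusted p = 0.002) but to a mean of 5.67, below the level the rule asks. DUSP1 differed by 0.41 ± 0.32 (adjusted p = 0.34), and JUN fell by 0.78 with an SE of 0.28 (adjusted p = 0.04). MAP3K1 was among those higher with the sponge (2.18 ± 0.25, adjusted p = 0.00013).

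Innate immune lists lay mostly outside the members. All 7 raised genes of the Toll-like receptor, NF-kB and inflammasome list and all 10 raised monocyte and macrophage markers were lower with the sponge by 0.4 or more, so neither list held a member. Of 6 raised cytokine and chemokine receptor genes 5 were lower with the sponge, IL6R being the member, and of 6 raised Fc, complement and phagocytic receptor genes 5 were lower, FCGR2B being the member. Of 5 raised genes among 22 measured reported miR-124 targets, 2 were lower, 2 were higher and PTPN12 was the member. These counts held for those lists without control replicate 1. Of the interferon signalling list 6 genes were then raised and 0 were members, since STAT6 dropped out, and of the heat shock list 4 were raised, with HSPD1 no longer among them. In the respiratory chain list 3 were then raised, 2 of them higher with the sponge. Leaving out a control library cannot change a sponge difference, only which genes count as raised. FCGR2B was no longer a member without Salmonella replicate 1. IL6R was no longer a member without Salmonella replicate 4, or without sponge plus Salmonella replicate 1 or 4. No difference between lists was tested.

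**Figure D5:**
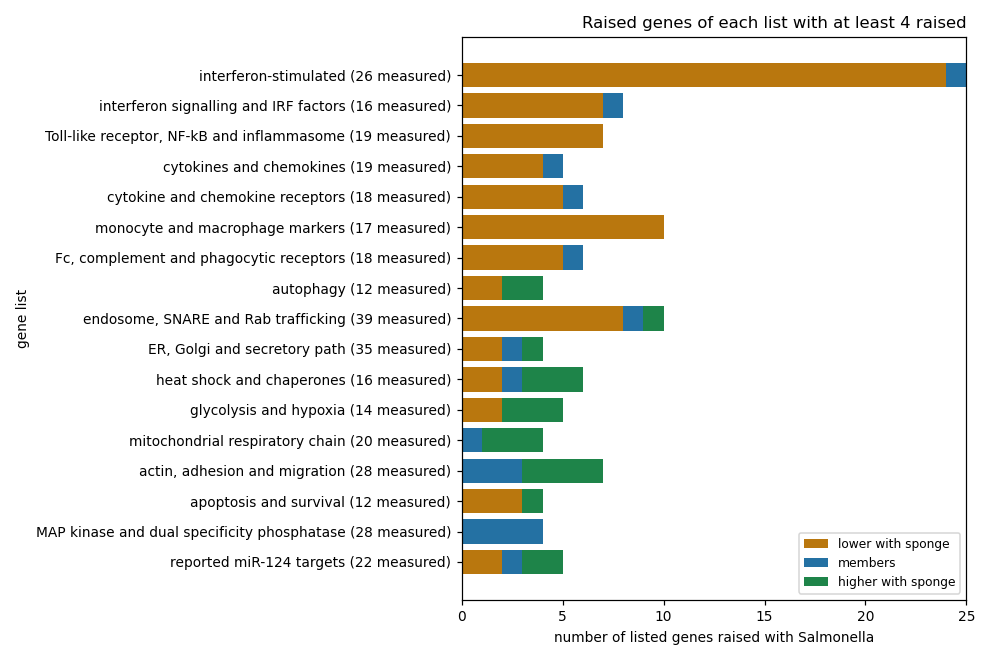
Number of genes raised with Salmonella (horizontal axis) in each gene list with at least 4 such genes (vertical axis, with the number measured), divided into genes lower with the sponge by 0.4 or more, members, and genes higher by 0.4 or more. By the rule on all 12 libraries, all 4 raised genes of the MAP kinase and dual specificity phosphatase list are members. This stands beside 1 of 25 interferon-stimulated genes (NMI) and 0 of 10 monocyte and macrophage markers. JUNB, DUSP3 and NMI each left the members when certain single libraries were left out.

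All 98 symbols were found in the pig gene tables, and 95 had a position in Sscrofa11.1. Among chromosomes with a member, the share of measured genes that were members ran from 0.352% (X) to 3.54% (chromosome 4). It was 1.31% in the whole table, 2.68% on chromosome 9, 2.48% on chromosome 15 and 2.15% on chromosome 3. No difference between chromosomes was tested. The 14 members of 395 measured genes on chromosome 4 included S100A12, IL6R, FCGR2B and HSPA6. FCGR2B and HSPA6 lay 77.6 kb apart there, SLC25A44 and MEX3A 92.7 kb apart, and IL6R and S100A12 844 kb apart. On chromosome 3 TRIM56 and AP1S1 were 38.5 kb apart. The median gene length of the members was 25.1 kb, close to the 26.5 kb of all genes and the 24.4 kb of raised genes lower with the sponge, and 39.3 kb in those higher with the sponge.

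Genes on either side of each limit differed little. The smallest rises among members were 1.01 in ACBD3, 1.02 in DECR1 and 1.02 in STAT6, and the nearest genes left out rose by 0.996 (NUMB), 0.994 (PISD) and 0.990 (RSF1). The sponge differences nearest the limit were 0.39 in RSRC2, -0.39 in CA2 and -0.39 in CLIP2, and just outside stood SEMA6B (0.403), RGMA (0.404) and CORO1C (0.411). By level, PTPRJ (6.04), RSRC2 (6.06) and ACOT8 (6.10) were just inside, and RAB18 (5.94), SAMD14 (5.88) and CD163 (5.85) just outside. When each of the 12 libraries was left out in turn, 44 of the 98 members were chosen every time.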

How the data were processed

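Per the labels, 12 PBMC libraries of pigs were sequenced in single 50-base reads. The authors deposited 1 table of log2 values for 7480 gene symbols, and Bowtie, R 3.4.2 and Sscrofa11.1 were used, per the submitters' processing notes. How reads were counted and normalized was not given in the sources used here. Logarithms were taken to have base 2. Depth is unknown, so no counting error is given. 0 per-sample columns lay outside the labels.

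All genes were fitted with limma 3.58.1 (R 4.3.3), with group means and a variance trend, and an adjusted p (Benjamini-Hochberg) below 0.05 made a call. The script was tested on simulated data. The replicate numbers in the titles are not stated to pair libraries, so the main fit used no pairing. Marker and list sums add linear values and are given as log2.

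The members and the 28 gene lists were chosen with earlier results of these data known, and roles were assigned after the members were known. By rule the text names the 12 members with the largest rise, the 6 with the highest Salmonella mean, the 6 with the sponge difference nearest 0, up to 4 members per list, 3 genes on either side of each limit, and up to 5 members per role. Single values of 2 members are not reported here. Members outside this rule were named after their values were seen. Promoter and transcript sequence was not analysed here. Alternatives were leaving out each library, a replicate block, 2 groups only, no variance trend, median centring, quantile normalization, a filter on a mean of at least 5, and other limits of the rule.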

Additional observations from a re-analysis of the deposited data

Results flagged for a closer look

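In 96 members and each group of 4 libraries, the highest and lowest values were compared with their nearest neighbour. In 17 of 288 such groups the gap to that neighbour took up a larger share of the whole range than Dixon's critical value for 4 samples. That count is close to 1 in 20, the share that chance gives in independent groups. The groups here share the same libraries, so the count cannot tell whether chance gave these values. The values below are therefore listed as a description, and nothing is read from them about a library. The libraries concerned were control replicate 1 and Salmonella replicate 1 (5 each), sponge plus Salmonella replicate 1 (4), Salmonella replicate 3 (2) and Salmonella replicate 4 (1).

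Control replicate 1 was low in 5 members. PTGS2 read 4.38 there against 5.53 to 5.64 in the other controls, P2RY13 4.46 against 5.86 to 5.97, S100A11 9.06 against 9.80 to 9.94, SPAG9 6.05 against 6.88 to 6.91, and TUBA1A 8.05 against 9.02 to 9.20. The rises of these members without that library stand beside their values above or, for SPAG9, at 0.89.

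Salmonella replicate 1 was high in MBD2 (7.12 against 6.66 to 6.71), KPNA3 (8.07 against 7.26 to 7.33), LMO4 (10.16 against 9.16 to 9.25) and TMED7 (8.86 against 7.34 to 7.54), and low in HSPA6 (10.39 against 10.64 to 10.67). Salmonella replicate 3 was high in GNAI3 (8.49 against 7.91 to 7.98) and CHSY1 (9.93 against 9.46 to 9.49). Salmonella replicate 4 was low in RNF20 (8.82 against 9.23 to 9.28).

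Sponge plus Salmonella replicate 1 was low in MEX3A (6.30 against 6.88 to 6.95) and ARRDC3 (6.61 against 7.72 to 7.82). It was high in LMO4 (9.91 against 9.27 to 9.28) and DECR1 (11.62 against 10.95 to 11.03).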

How the results depend on the processing

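The number of members fell to 48 with a rise of at least 1.5. It was 77 with a sponge difference below 0.3 and 123 below 0.5, 125 with no minimum on the Salmonella mean, 74 with a mean of at least 7, 98 by group medians, 86 after median centring and 89 after quantile normalization. Leaving out 1 library gave 77 (without control replicate 1, and also without Salmonella replicate 1) to 139 genes (without Salmonella replicate 4). At least 66 of the members were shared, the fewest without Salmonella replicate 1. Members called were then 93 to 97 between Salmonella and control, 0 to 0 between sponge plus Salmonella and Salmonella, and 92 to 97 between sponge plus Salmonella and control. Over all 7480 genes the same comparisons called 1991 to 2624, 1325 to 2013 and 2441 to 3139. With the replicate block, 96, 0 and 96 members were called (2371, 1706 and 2907 of all 7480 genes); the numbers are not stated to pair libraries, correlations of same-numbered deviations ran from -0.36 to 0.38, and 3 of 12 libraries correlated best with their own number. Over 3 comparisons and 18 settings, the call of a member stayed the same in 5238 cases, was lost in 52 and gained in 2. All of these changes were in the comparisons with control, where 0 differences reversed. Sponge differences stayed uncalled in all settings, which the rule all but fixed, and those near 0 could change sign. The planned change of pseudocount was not run because the values were already logarithms, and sequence features were not analysed. Unknown depth and 4 libraries per group limit what differences could be seen.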
